A study of Mus musculus with 10 samples.

Results

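The genes described here code for structural proteins of the extracellular matrix: collagens, laminins, tenascins, fibronectin, the lectican proteoglycans and the link proteins that tie lecticans to hyaluronan. They were chosen by symbol alone, as every row of the 10 count files named as a collagen chain, a laminin chain, Tnc, Tnr, Tnn, Fn1, Vcan, Bcan, Ncan, Acan or Hapln1 to Hapln4. This gave 67 of 50559 genes: 44 collagen chains, 11 laminin chains, 3 tenascins, fibronectin, 4 lecticans and 4 link proteins. All 67 passed the filter on low counts. Only 1 of their values, that of Col28a1 in tumor 2, was at or under 3 counts.

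The study asked whether granule cell precursors (GCPs, the dividing neuronal progenitors of the young cerebellum) that overexpress MYC and lack SMARCA4, a subunit of the SWI/SNF chromatin remodeling complex, form medulloblastoma in mice. RNA sequencing was done on formalin-fixed paraffin-embedded (FFPE) tissue of 10 samples in 3 groups. The 4 MYC/SMARCA4 tumors grew in CD1nu/nu mice, which are immunodeficient, after transplantation of GCPs from tamoxifen-induced Math1-creERT2::Smarca4fl/fl pups that had been infected with a lentivirus carrying MYC and GFP under a CMV promoter, with mice aged 112 (tumor 1), 96 (tumor 2), 89 (tumor 3) and 79 days (tumor 4) per the labels. The 3 P7 cerebella were whole cerebella of Math1-creERT2::Smarca4fl/fl pups injected with 0.4 mg tamoxifen on day 3 and taken at 7 days, and the 3 SHH MB were tumors of Math1-cre::Smofl/wt mice, a model of sonic hedgehog medulloblastoma, labelled 7 days old. Both the tumors and the P7 cerebella thus came from floxed Smarca4 animals induced through Math1, a driver active in GCPs, so the cerebella were not wild type. The transplanted cells were not sorted for recombination or infection, and the tumors were sampled as biopsy punches from adult hosts and may also hold host vessels, meninges and normal cerebellum. The labels do not say that the cerebella and SHH MB came from separate animals, so the p-values measure the spread between these samples. Age, transplantation, dissection and tumor type cannot be told apart in the comparisons.

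The extracellular matrix of brain differs from that of connective tissue. Fibrillar collagens and fibronectin are mostly made by meningeal and perivascular cells, and the basement membranes that line vessels and the pial surface are sheets of laminins and type IV collagen, whereas the space between neurons and glia is filled with hyaluronan bound to lecticans through link proteins and cross-linked by tenascins. In the developing cerebellum, laminins at the pial surface and the lecticans, tenascins and link proteins around migrating and maturing neurons are known constituents of the niche of GCPs, and the adult composition, with condensed perineuronal nets, replaces a looser juvenile matrix.

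Counts assigned to genes, which are fewer than the reads sequenced, summed to 5663491 to 9352109 per library. In these libraries 3 counts corresponded to 0.307 to 0.744 CPM (counts scaled to the normalized size of the library). Myc was measured at 152, 368, 1587 and 1016 CPM in tumors 1 to 4, against 13.0 to 14.3 in the P7 cerebella and 33.7 to 45.7 in SHH MB, and was thus higher in every tumor. Smarca4 was measured at 136 to 244 CPM in the tumors and 221 to 282 in the P7 cerebella (log2 fold change -0.30, edgeR, adjusted p = 0.495). In SHH MB it was at 491 to 589.7 CPM, above every tumor (tumors against SHH MB log2 fold change -1.39, adjusted p = 0.0157). Gene counts cover the whole gene, including recombined transcripts and other cells. In the study itself, staining showed no SMARCA4 protein in the tumor cells, with positive blood vessels between them. PCR on DNA of tumor biopsies found the recombined gene. The RNA level given here is thus no measure of the protein. The tumors differed from each other in markers of other cell types. The summed level of 9 mature granule neuron markers was 8414, 3044, 419 and 1923 CPM in tumors 1 to 4, that of 8 Purkinje cell markers 11908, 2829.6, 366 and 2010.3 CPM, and that of 12 meningeal fibroblast markers 168, 252, 63.1 and 159.9 CPM. The same sums were 1516 to 1912, 1373 to 1502 and 106 to 141 CPM in the P7 cerebella and 519 to 638, 369 to 670 and 98.6 to 146 CPM in SHH MB. The Purkinje cell sums of the tumors rested largely on 1 gene, Itpr1, at 7095, 2056, 289 and 1428 CPM in tumors 1 to 4. Itpr1 was at 598 to 653 CPM in the P7 cerebella and 217 to 361 in SHH MB. No list of cell type markers used here had a member at or under 3 counts in every tumor. In bulk samples, fewer cells of a type and less RNA per cell cannot be told apart.

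The 67 genes took a smaller share of the unscaled counts in the tumors than in either other group, without overlap. It was 0.149% to 0.211% per library against 0.336% to 0.352% in the P7 cerebella and 0.385% to 0.409% in SHH MB. The CPM use normalized library sizes instead, with scaling factors of 0.619, 0.802, 1.28 and 0.881 in tumors 1 to 4. The factors of tumors 1, 2 and 4 lay below, and that of tumor 3 above, those of every P7 cerebellum and SHH MB. With normalized sizes the gap is thus smaller for tumors 1, 2 and 4 and larger for tumor 3, so its size depends on the scaling. Against the P7 cerebella, 12 of the 67 fell and 1 rose in the tumors (edgeR's quasi-likelihood test with Benjamini-Hochberg adjustment over 29952 genes, adjusted p of at most 0.05), where 2.27% of all tested genes were called lower, 3.99% higher and 6.25% in either direction. The 12 are 17.9% of the genes described. Against SHH MB, 11 fell and 1 rose, that is 16.4% lower, with the same 4 tumors entering both comparisons, where 2.26% of all genes were called lower, 2.43% higher and 4.68% in either direction. Between SHH MB and P7 cerebella, 1 gene rose and none fell, with 9 at an unadjusted p below 0.05 and 3 called by DESeq2 and 1 by limma, where 0.177% of all genes were called higher, 0.0467% lower and 0.224% in either direction. The median log2 fold change of the 67 was -0.67 against the P7 cerebella, where that of all genes was -0.05, and -0.58 against SHH MB, where that of all genes was 0.01. All 4 tumors lay below all 3 P7 cerebella for 32 of the 67 and above them for 1, as compared to 10.7% and 10.3% of all genes. Against SHH MB the counts were 20 below and 2 above, as compared to 8.30% and 7.83% of all genes. With the thresholds of the study, which ask for a log2 difference of 2.5 or more in size with an adjusted p up to 0.01, Tnc, Ncan and Col9a3 passed against the P7 cerebella (3 members, 0.29% of all genes), these with Col11a1 and Lama5 against SHH MB (5 members, 0.601% of all genes), and Lama5 between SHH MB and P7 cerebella (0.01% of all genes). The members, their families and the lists used below were chosen knowing earlier results of these data, so these counts describe the genes and are no independent test. The shares of all genes given here are those to set beside the counts of called genes in the families and lists below.

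**Figure D1:**
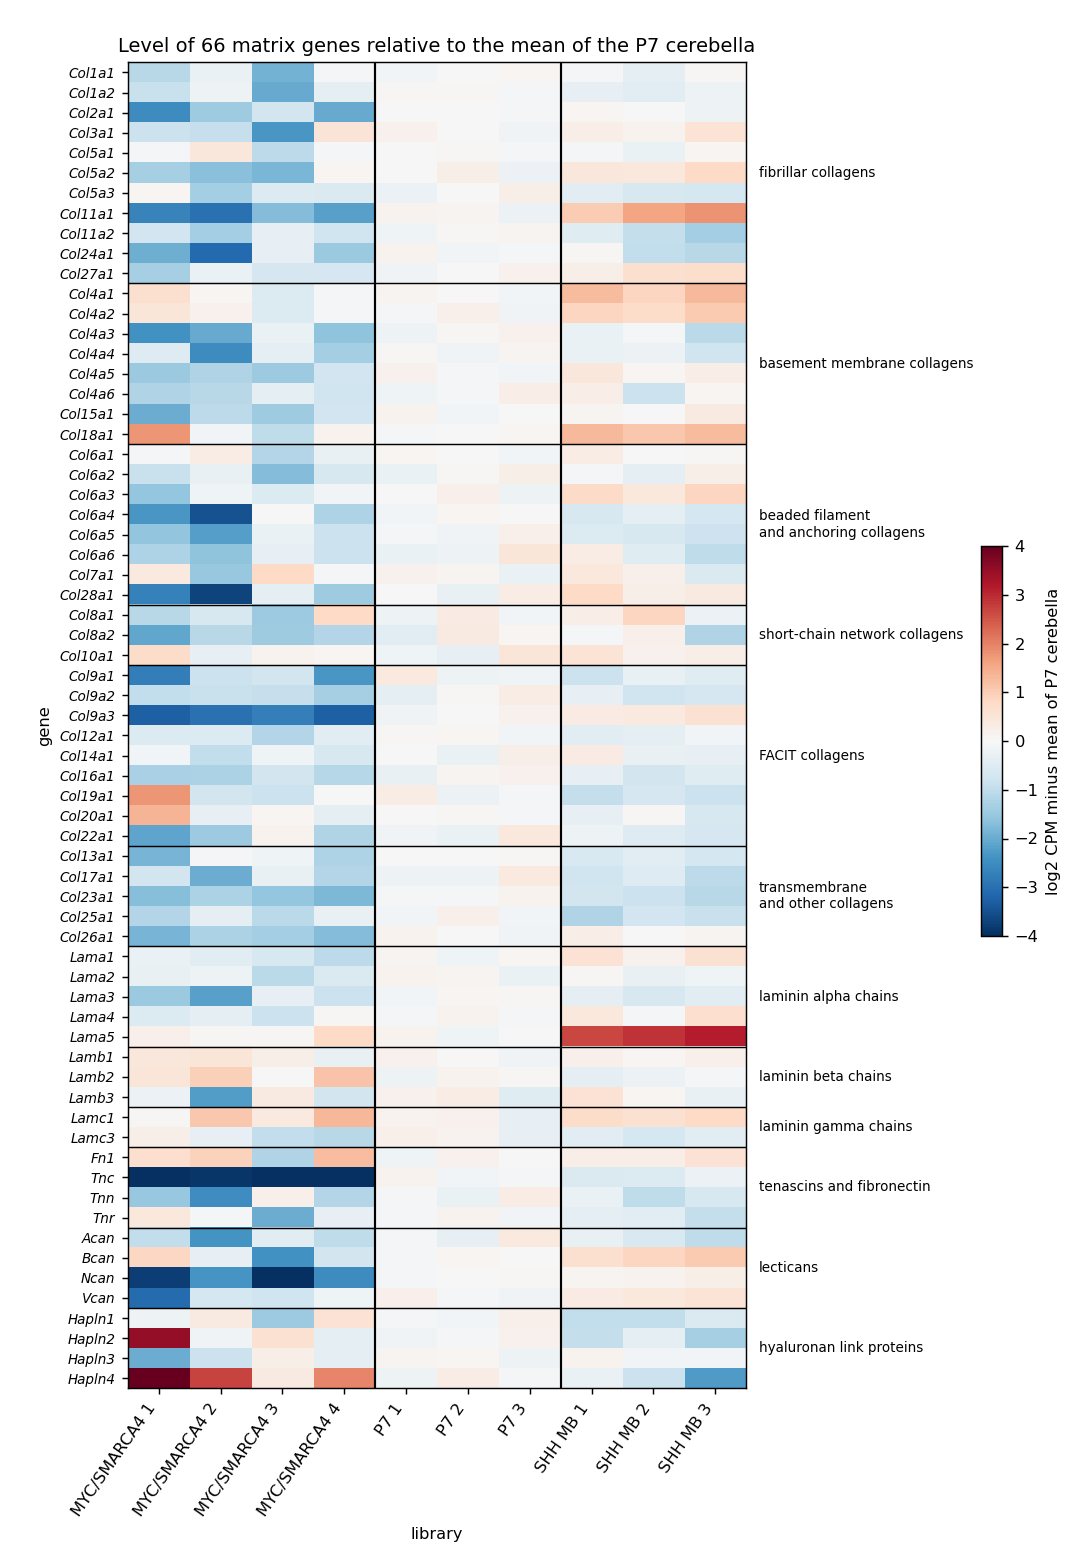
Level of 66 of the 67 matrix genes in each library (columns) as the log2 CPM minus the mean of the 3 P7 cerebella, with genes in rows ordered by family; blue is lower, red is higher and the scale stops at 4 in either direction. Tnc, Ncan, Col9a3 and Col11a1 are blue in all 4 tumors, Hapln4 is red in the tumors and Lama5 is red in the 3 SHH MB.

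The counts of calls depended on single libraries. The shares of all genes called without these libraries are not given here, so the counts cannot be read as particular to matrix genes. Against the P7 cerebella, 32 of the 67 were called without tumor 3, 7 without tumor 2 and 5 without any 1 of the 3 cerebella. Against SHH MB, 31 were called without tumor 3, 20 without tumor 1, and 7, 7 and 6 without SHH MB 1, 2 and 3. Col11a1, Col9a3, Ncan and Tnc were called in both tumor comparisons, Col23a1 against the P7 cerebella and Lama5 and Col26a1 against SHH MB under all 16 alternatives that kept the threshold, and full values are given for these first. Of the genes called by edgeR, limma did not call Col16a1, Col8a2, Col9a2 and Hapln4 against the P7 cerebella. Against SHH MB it did not call Col27a1 and Lama1.

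**Figure D2:**
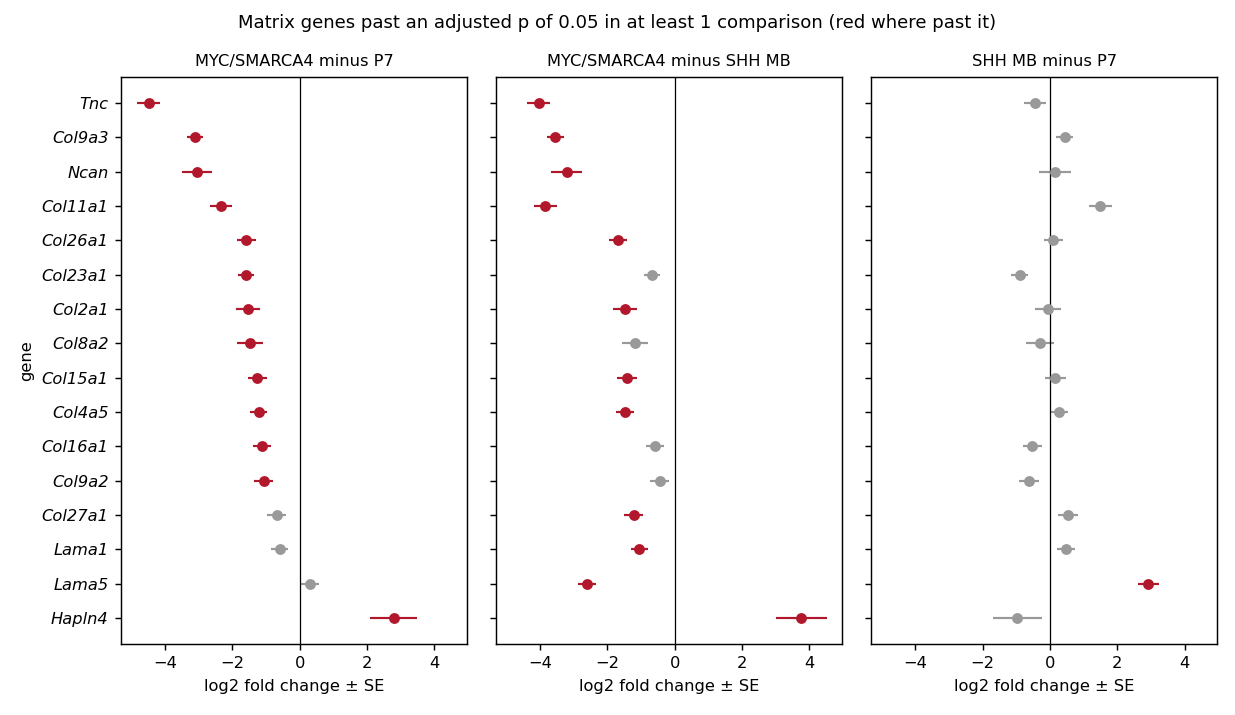
Log2 fold change (x axis, with its standard error) of the 16 matrix genes past an adjusted p of 0.05 in at least 1 of the 3 comparisons (y axis), in red where past it. Tnc, Col9a3, Ncan and Col11a1 lie at or below -2.35 in both tumor comparisons, Hapln4 lies at 2.79 and 3.76, and Lama5 is the red point of the comparison between SHH MB and P7 cerebella.

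Tenascins are large hexameric or trimeric glycoproteins that modulate cell adhesion, and tenascin C is made by glial precursors and radial glia, Bergmann glia included. Tnc (ENSMUSG00000028364, chromosome 4, 63878014 to 63965443 on the minus strand of GRCm39, 27 exon blocks) was the member with the largest change. It was measured at 5.95, 16.2, 8.68 and 12.8 CPM in tumors 1 to 4, at 270.4, 229.7 and 239 in the P7 cerebella and at 165, 167 and 210.2 in SHH MB. The highest tumor was thus far below the lowest library of either other group. Tnc fell by 4.49 ± 0.34 on the log2 scale against the P7 cerebella, or 22.4-fold (SE, edgeR, adjusted p = 0.000138), and against SHH MB the difference was -4.04 ± 0.34, or 16.5-fold lower (SE, edgeR, adjusted p = 6.28e-05). Leaving out any 1 library kept both calls, with an adjusted p of at most 0.00151. An annotated RNA on the other strand, 8030451A03Rik, shares 303 exon bases with Tnc, or 3.80% of them, and had 5 to 44 counts in the tumors and 80 to 135 in the others.

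Tnr codes for tenascin R, which is made by oligodendrocytes and some interneurons and is a component of perineuronal nets. It did not pass the test in any comparison. Its levels were 176, 125, 32.7 and 104 CPM in tumors 1 to 4, 127, 144 and 122 in the P7 cerebella and 100.2, 96.4 and 67.5 in SHH MB, with tumor 3 lowest and tumor 1 highest of all 10 libraries. Per kb of the canonical transcript, Tnc was 3.17 ± 0.451 (SD, n = 3) times as abundant as Tnr in the P7 cerebella and 3.62 ± 1.38 (SD, n = 3) times in SHH MB, whereas the ratio in the tumors was 0.230 ± 0.159 (SD, n = 4). The ratio was 0.0564, 0.216, 0.443 and 0.207 in tumors 1 to 4, each below the lowest value of the other libraries, 2.67. Tnn, the third tenascin gene, stood at 1.26 to 9.65 CPM in the tumors and 4.01 to 10.3 CPM in the others and passed no test. Fn1 codes for fibronectin, an adhesive glycoprotein of plasma, vessels and connective tissue. It was measured at 193, 229, 51.9 and 279.8 CPM in tumors 1 to 4 and 107 to 181 CPM in the 6 other libraries, so 3 tumors were above and tumor 3 below all of these (log2 fold change against P7 cerebella 0.64 ± 0.43, SE, edgeR, adjusted p = 0.347). Per kb of transcript Fn1 was on average the most abundant member in the tumors, at 22.4 CPM per kb. With the union of annotated exons in place of the canonical transcript it ranked 6th and Hapln4 came first.

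**Figure D3:**
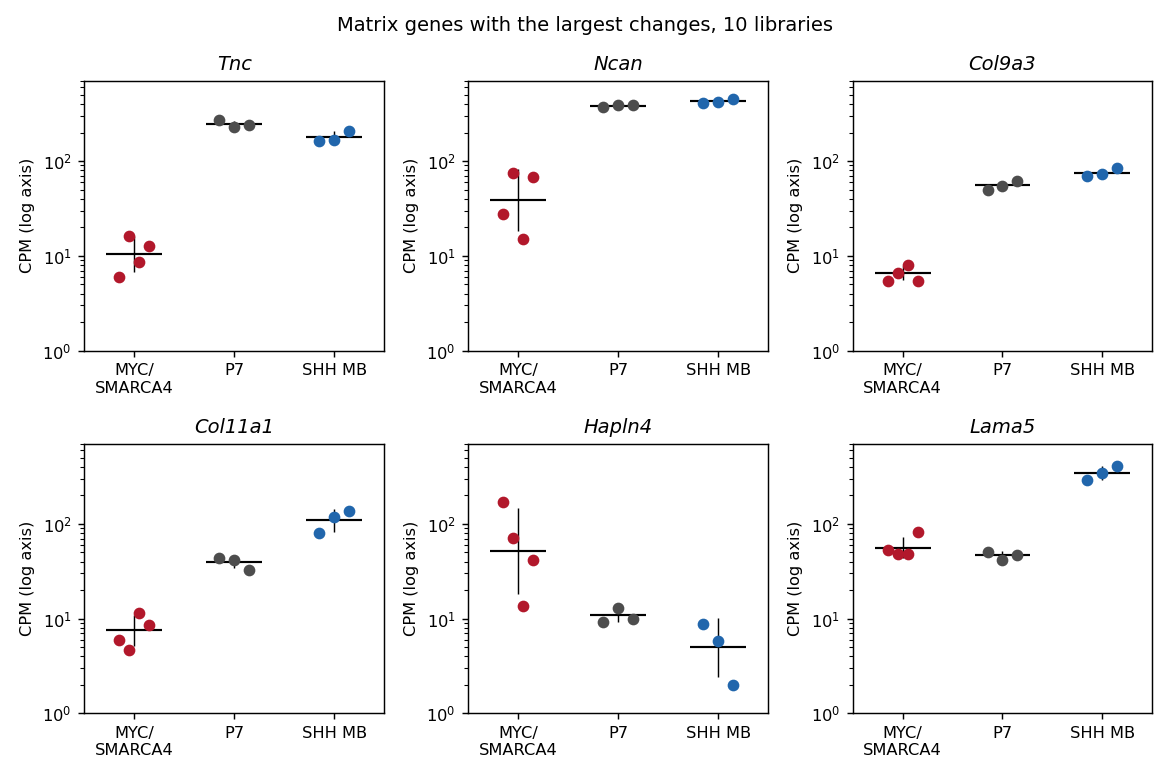
CPM (y axis, log scale) of 6 matrix genes in the 4 MYC/SMARCA4 tumors, 3 P7 cerebella and 3 SHH MB, where points are libraries, horizontal lines the mean of log2 CPM and vertical lines its SD. The tumors lie below all other libraries for Tnc, Ncan, Col9a3 and Col11a1 and above them for Hapln4, and the SHH MB lie at 293, 346 and 409 CPM for Lama5, above all others.

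Lecticans are chondroitin sulfate proteoglycans that bind hyaluronan at one end and tenascins at the other, and neurocan, coded by Ncan, is the member most typical of developing brain. Ncan (ENSMUSG00000002341, chromosome 8, 70538926 to 70573523, minus strand, 16 exon blocks) was measured at 28, 74.5, 15.3 and 67.7 CPM in tumors 1 to 4, at 371, 389.7 and 395 in the P7 cerebella and at 412, 422 and 452 in SHH MB. The tumors varied among themselves but all lay below the other 6 libraries, which lay close together. Ncan fell by 3.05 ± 0.46 on the log2 scale against the P7 cerebella, or 8.30-fold (SE, edgeR, adjusted p = 0.00435), and against SHH MB the difference was -3.21 ± 0.46, or 9.23-fold lower (SE, edgeR, adjusted p = 0.00210). Both calls held without any 1 library, with an adjusted p of at most 0.0303. The other lecticans did not pass the test. Vcan, coding for versican, was at 24.0, 127, 119 and 184 CPM in the tumors, all below the 185 to 300 CPM of the other libraries, and its fold change was -0.86 ± 0.47 on the log2 scale against the P7 cerebella (SE, edgeR, adjusted p = 0.258). Bcan, coding for brevican, which is made by astrocytes and oligodendrocyte lineage cells, ranged from 14.3 in tumor 3 to 139 CPM in tumor 1, against 73.3, 81.2 and 77.2 in the P7 cerebella and 119, 139.5 and 158 in SHH MB. Acan, coding for aggrecan, was at 1.80 to 7.70 CPM in the tumors and 8.41 to 14.0 in the P7 cerebella (edgeR, adjusted p = 0.132).

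Of the summed CPM per kb of the 4 lecticans, Ncan made up 58.5 ± 1.63% in the P7 cerebella and 50.2 ± 1.70% in SHH MB (SD, n = 3 each) but 19.0 ± 9.34% in the tumors (SD, n = 4). The leading lectican differed between tumors. Bcan held 84.9, 43.7, 22.9 and 33.2% in tumors 1 to 4 and Vcan 4.45, 27.4, 57.9 and 39.5%, so that Bcan led in tumors 1 and 2 and Vcan in tumors 3 and 4. With the union of exons as length, Vcan led in tumor 2 too in place of Bcan, at 34.1% against 31.7%, with Ncan at 33.2%.

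Markers of the glia that are known to make these proteins were measured beside them. Of 10 astrocyte and Bergmann glia markers, 3 fell against the P7 cerebella (Aqp4, Gdf10 and Aldh1l1) and 0 rose, with 7 fold changes below 0 and 3 above. Against SHH MB, 1 fell (Aldh1l1) and 1 rose (Gjb6), with 6 fold changes below 0 and 4 above. The list as a whole thus did not move in 1 direction. The summed level of the 10 markers was 551, 2619, 507 and 1951 CPM in tumors 1 to 4, against 2170 to 2238 in the P7 cerebella and 1746 to 2034 in SHH MB. The sum rested largely on Slc1a2 in tumors 2 and 4, where this gene alone was at 1557 and 1340.4 CPM, against 536 to 575 in the P7 cerebella. Of 7 oligodendrocyte precursor markers, 2 fell against the P7 cerebella (Gpr17 and Olig2) and 3 against SHH MB, and their sum was 124 to 206 CPM in the tumors, 388 to 412 in the P7 cerebella and 481 to 536 in SHH MB. The 9 GCP markers summed to 563 to 1069, 1554 to 1633 and 2400 to 3055 CPM in the same order, with 3 and 4 of them lower in the tumors. The part of these cell types in the levels of Tnc and Ncan was not tested.

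Link proteins stabilize the binding of lecticans to hyaluronan, and Hapln4 (also called brain link protein 2) is known from perineuronal nets of the mature cerebellum. Hapln4 (ENSMUSG00000007594, chromosome 8, 70536106 to 70543533, plus strand, 5 exon blocks) was measured at 172, 70.5, 13.6 and 42.0 CPM in tumors 1 to 4, at 9.20, 13.0 and 9.99 in the P7 cerebella and at 8.71, 5.77 and 1.99 in SHH MB. All 4 tumors were above the other libraries, although tumor 3 lay close to P7 cerebellum 2. Hapln4 rose by 2.79 ± 0.71 on the log2 scale against the P7 cerebella, or 6.91-fold (SE, edgeR, adjusted p = 0.0384), and against SHH MB the difference was 3.76 ± 0.75, or 13.5-fold higher (SE, edgeR, adjusted p = 0.0156). It was the only member that rose in either tumor comparison. The first call was lost without tumor 2, tumor 4 or any 1 of the cerebella (adjusted p of at most 0.18) and the second without SHH MB 2 or 3 (at most 0.0968). The first was also lost under limma and with the replicate numbers as a block. Both were lost when only the 2 groups compared were fitted. Of the 16 alternatives, 8 kept the first call and 13 the second. The order of the tumors for Hapln4, with tumor 1 highest, then 2, 4 and 3, was that of the summed mature granule neuron and Purkinje cell markers given above. The summed myelin, endothelial, pericyte and GCP markers had this order too. Of the 9 granule neuron markers, 4 rose against the P7 cerebella and 5 against SHH MB, and the 8 Purkinje cell markers had fold changes above 0 in both comparisons, with 2 past the test against SHH MB (edgeR). In neither comparison was any of the 8 Purkinje cell markers higher in every tumor than in every library of the other group. Tumor 1 was the highest tumor for all 8, and tumor 3 lay below every P7 cerebellum for all 8. The part of mature neurons in the level of Hapln4 was not tested.

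Hapln2, known as brain link protein 1 and made by myelinating oligodendrocytes, was at 57.3, 4.32, 7.42 and 3.54 CPM in tumors 1 to 4, with tumor 1 alone above the 1.70 to 5.42 CPM of the other groups by a wide margin, and did not pass the test (edgeR, adjusted p = 0.181 and 0.0996). The summed level of 9 myelin markers was likewise highest in tumor 1, 4183, 844, 120.1 and 467 CPM in tumors 1 to 4. Hapln1, at 2.66 to 11.6 CPM, and Hapln3, at 0.992 to 5.60 CPM, overlapped with the other groups. Each link protein gene is the neighbour of a lectican gene in the mouse genome. Vcan and Hapln1 lie 43.5 kb apart on chromosome 13, Bcan and Hapln2 16.6 kb apart on chromosome 3, and Acan and Hapln3 are separated by 2 bases on chromosome 7. Ncan and Hapln4 overlap by 4608 bases on opposite strands of chromosome 8 and share 1255 exon bases, which are 31.3% of the exon bases of Hapln4 and 12.6% of those of Ncan. The strand setting of the counting is not given in the sources used here, so reads from the shared stretch cannot be assigned with certainty, and the calls of both genes carry this uncertainty. Per kb of transcript, Hapln4 was 0.0547 ± 0.00946 times Ncan in the P7 cerebella and 0.0257 ± 0.0165 times in SHH MB (SD, n = 3 each), and 12.1, 1.86, 1.75 and 1.22 times in tumors 1 to 4.

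**Figure D4:**
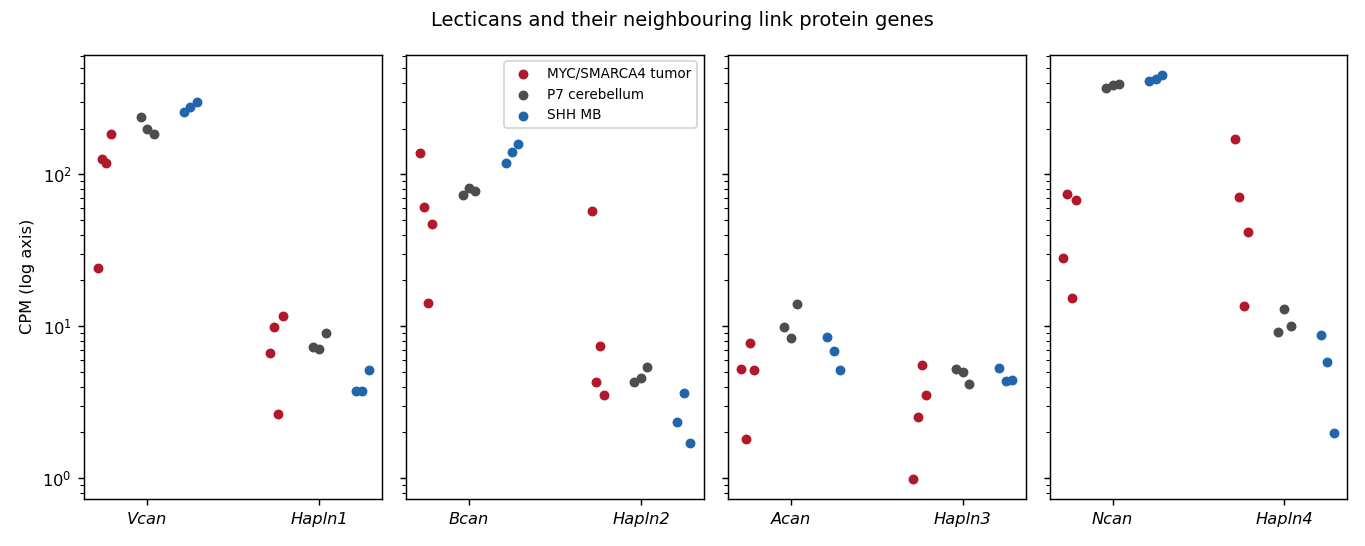
CPM (y axis, log scale) of the 4 lectican genes and of the link protein gene beside each, in the MYC/SMARCA4 tumors (red), P7 cerebella (grey) and SHH MB (blue), where points are libraries. Ncan is lower and Hapln4 higher in all 4 tumors than in the other libraries, and Hapln2 stands at 57.3 CPM in tumor 1.

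Fibrillar collagens form the banded fibrils of connective tissue, with types I and III the main ones and types V and XI in their cores. Of the 11 fibrillar chains, 2 fell against the P7 cerebella, 3 against SHH MB and none rose. Col11a1, a chain of type XI collagen (ENSMUSG00000027966, chromosome 3, 113824134 to 114014367, plus strand, 68 exon blocks), was measured at 5.95, 4.68, 11.5 and 8.54 CPM in tumors 1 to 4, at 43.4, 41.9 and 33.0 in the P7 cerebella and at 79.3, 118 and 136 in SHH MB. The 3 groups did not overlap, with SHH MB highest. Col11a1 fell by 2.35 ± 0.32 on the log2 scale against the P7 cerebella, or 5.10-fold (SE, edgeR, adjusted p = 0.00307), and against SHH MB the difference was -3.84 ± 0.34, or 14.3-fold lower (SE, edgeR, adjusted p = 6.59e-05). Both calls held without any 1 library (adjusted p of at most 0.0232). Col2a1, the chain of cartilage collagen, was at 5.21, 11.5, 18.5 and 7.56 CPM in the tumors, 31.7, 31.2 and 30.4 in the P7 cerebella and 32.7, 30.5 and 26.7 in SHH MB, again with all tumors below. It fell by 1.53 ± 0.35 on the log2 scale against the P7 cerebella (SE, edgeR, adjusted p = 0.0272) and by 1.48 ± 0.36 against SHH MB (adjusted p = 0.0339). These calls were lost without tumor 2, without tumor 4 and without any 1 control library, with an adjusted p of at most 0.158. Col27a1 fell by 1.23 ± 0.28 against SHH MB (SE, edgeR, adjusted p = 0.0262), from 33.9, 44.4 and 46.9 to 11.2, 23.9, 18.0 and 18.1 CPM, a call lost without tumor 4 or any 1 SHH MB (at most 0.166).

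The chains of types I and III did not pass the test. Col1a1 was at 54.8, 96.8, 31.5 and 113 CPM in tumors 1 to 4 and 90.8 to 124 in the other libraries, Col1a2 at 44.9, 72.7, 20.1 and 64.8 against 60.0 to 85.7, and Col3a1 at 53.8, 51.8, 19.4 and 142 against 88.9 to 143. Tumor 3 was the lowest of all 10 libraries for each of the 3, and it was also lowest in the summed meningeal fibroblast markers, whose part in these levels was not tested. The meningeal list was not alone in this. Among the tumors, tumor 3 was also lowest in the summed astrocyte, oligodendrocyte precursor, myelin, mature granule neuron, Purkinje cell, GCP, endothelial, pericyte and microglial markers. Type I collagen is a trimer with more of the chain coded by Col1a1 than of that coded by Col1a2. Per kb of canonical transcript, the ratio of Col1a1 to Col1a2 was 1.32 ± 0.214 (SD, n = 4) in the tumors, 1.29 ± 0.141 in the P7 cerebella and 1.48 ± 0.0944 in SHH MB (SD, n = 3 each), within the spread of each other for tumors and cerebella. With the union of exons as length the ratios were 2.82, 2.75 and 3.15.

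FACIT collagens do not form fibrils themselves but attach to their surface, and type IX collagen, made of the chains coded by Col9a1, Col9a2 and Col9a3, is best known from cartilage and eye. Of 9 FACIT chains, 3 fell against the P7 cerebella and 1 against SHH MB, and none rose. Col9a3 (ENSMUSG00000027570, chromosome 2, 180239583 to 180264063, plus strand, 32 exon blocks) was measured at 5.45, 6.66, 7.98 and 5.49 CPM in tumors 1 to 4, at 49.8, 54.3 and 61.9 in the P7 cerebella and at 69.2, 72.3 and 84.2 in SHH MB. The 4 tumors lay close together for this gene and were far below all other libraries. Col9a3 fell by 3.11 ± 0.25 on the log2 scale against the P7 cerebella, or 8.60-fold (SE, edgeR, adjusted p = 0.000138), and against SHH MB the difference was -3.55 ± 0.25, or 11.7-fold lower (SE, edgeR, adjusted p = 1.72e-05). Both calls held without any 1 library (adjusted p of at most 0.00195). Col9a2 fell by 1.07 ± 0.28 against the P7 cerebella (SE, edgeR, adjusted p = 0.0421), with 8.68, 9.36, 9.09 and 6.83 CPM in the tumors and 13.7, 18.2 and 21.4 in the cerebella. Col9a1 was at 1.74, 7.20, 7.98 and 2.44 CPM against 17.6, 11.5 and 11.7, without overlap, but did not pass the test (adjusted p = 0.0780). Types II, IX and XI are together known from cartilage, and the summed level of 10 bone and cartilage markers was 26.5 to 50.3 CPM in the tumors, 23.7 to 35.1 in the P7 cerebella and 22.4 to 30.5 in SHH MB. Per kb of canonical transcript Col9a3 was the 5th most abundant of the 67 genes in the P7 cerebella and in SHH MB and the 33rd in the tumors. In SHH MB its range, 24.3 to 29.6 CPM per kb, overlapped that of Col18a1, 23.0 to 26.4. The union of exons of Col9a3 is longer, 4525 against 2850 bases, and its ranks with that length are not given here. Col16a1 fell by 1.11 ± 0.26 against the P7 cerebella (SE, edgeR, adjusted p = 0.0290), from 19.5, 26.1 and 27.3 to 9.67, 9.90, 14.3 and 10.9 CPM. The calls of Col9a2 and Col16a1 were lost without tumor 2, tumor 4 or any 1 cerebellum (at most 0.205). Col9a3 shares 535 exon bases, 11.8% of its own, with Tcfl5 on the other strand, which had 1 to 12 counts in the tumors and 22 to 34 in the others.

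Among the 8 collagens of basement membranes, Col4a5 and Col15a1 fell in both tumor comparisons and none rose. Col4a5, a chain of the type IV network of specialised basement membranes, was measured at 8.68, 10.6, 8.95 and 14.5 CPM in tumors 1 to 4, 27.8, 23.9 and 23.3 in the P7 cerebella and 34.2, 26.3 and 29.8 in SHH MB. It fell by 1.22 ± 0.26 on the log2 scale against the P7 cerebella (SE, edgeR, adjusted p = 0.0209) and by 1.49 ± 0.26 against SHH MB (adjusted p = 0.00737). Col15a1, a collagen that links basement membranes to the tissue beneath, was at 6.45, 12.6, 9.65 and 15.6 CPM in the tumors, 29.1, 24.7 and 26.1 in the P7 cerebella and 28.8, 26.7 and 33.8 in SHH MB. Its fall on the log2 scale was 1.25 ± 0.29 against the P7 cerebella (SE, edgeR, adjusted p = 0.0286) and 1.42 ± 0.30 against SHH MB (adjusted p = 0.0185). For both genes all tumors were below all other libraries. The calls against the P7 cerebella were lost without any 1 cerebellum, for Col15a1 also without tumor 2 (at most 0.136), and those against SHH MB without SHH MB 1 or 3, for Col15a1 also without SHH MB 2 (at most 0.129).

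Col4a1 and Col4a2 code for the chains of the type IV collagen found in all basement membranes, are transcribed away from each other from a shared promoter region on chromosome 8, with start sites 317 bases apart in the annotation, and share 311 exon bases. They were among the more abundant members and did not pass edgeR's test in any comparison, although DESeq2 called Col4a1 lower in the tumors than in SHH MB. Col4a1 was at 175, 119, 76.7 and 109.7 CPM in the tumors, 121, 113 and 103 in the P7 cerebella and 268, 206 and 274 in SHH MB, so that tumors and P7 cerebella overlapped and SHH MB lay above both (tumors against SHH MB -1.06 ± 0.29, SE, edgeR, adjusted p = 0.0591). Per kb, the ratio of Col4a1 to Col4a2 was 1.30 ± 0.0989 (SD, n = 4), 1.28 ± 0.157 and 1.52 ± 0.141 (SD, n = 3 each). The pairs Col4a3 with Col4a4 and Col4a5 with Col4a6 lie in the same way, head to head. Col4a3, Col4a4 and Col4a6 were at 2.23 to 13.7 CPM in the tumors and 6.11 to 19.1 in the others, with each tumor below each P7 cerebellum for all 3, and none passed the test. Col18a1, whose C-terminal fragment is endostatin, was at 208, 56.0, 29.7 and 66.4 CPM in the tumors, 57.9, 59.6 and 64.1 in the P7 cerebella and 147, 128 and 145 in SHH MB. Tumor 1, the highest for Col4a1, Col4a2 and Col18a1 among the tumors, was also the highest in the summed level of 10 endothelial markers (371, 175, 116 and 152 CPM in tumors 1 to 4, against 215 to 236 and 207 to 258), of which Kdr alone passed the test, with a fall against SHH MB. Among the tumors, tumor 1 was also the highest in the summed mature granule neuron, Purkinje cell, myelin, GCP, microglial and pericyte markers. The part of vessels in the levels of these collagens was not tested.

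Of the remaining collagens, the transmembrane chain Col23a1 and the secreted Col26a1 fell. Col23a1 was measured at 16.1, 22.3, 18.0 and 15.1 CPM in tumors 1 to 4, 51.1, 51.2 and 58.8 in the P7 cerebella and 32.0, 29.5 and 24.7 in SHH MB. Its fall against the P7 cerebella was 1.58 ± 0.24 (log2, SE, edgeR, adjusted p = 0.00424), and it held without any 1 library (at most 0.0389), while the difference from SHH MB, -0.68 ± 0.24, did not pass (adjusted p = 0.126). Col26a1 was at 3.72, 5.76, 5.46 and 4.15 CPM in the tumors, 15.9, 14.2 and 13.0 in the P7 cerebella and 17.1, 14.0 and 15.3 in SHH MB, with all tumors below the others. This was a fall of 1.58 ± 0.28 against the P7 cerebella (adjusted p = 0.00980) and of 1.69 ± 0.28 against SHH MB (adjusted p = 0.00508). The first of these was lost without any 1 cerebellum (at most 0.0740). All 5 transmembrane and other chains were lower in every tumor than in every P7 cerebellum. Among the 3 short-chain collagens Col8a2, known from the basement membrane of the cornea, fell by 1.47 ± 0.39 against the P7 cerebella (SE, edgeR, adjusted p = 0.0457), with 2.73, 5.58, 4.48 and 5.37 CPM in the tumors and 9.09, 16.0 and 13.1 in the cerebella, a call lost without tumor 2, tumor 4 or any 1 cerebellum (at most 0.221). None of the 8 beaded filament and anchoring collagens passed edgeR's test in any comparison. At an unadjusted p below 0.05, 4 of them differed from the P7 cerebella and 3 from SHH MB; DESeq2 called 1 and 2, and limma none and 1. The member of this family with the highest mean CPM over the 10 libraries, Col6a3, was at 7.93, 21.2, 16.4 and 22.1 CPM in the tumors and 20.8 to 43.9 in the others.

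The sequence before the start site is shown for Tnc, Ncan, Col11a1 and Lama5, the members with the largest changes that have an entry in the RefSeq promoter table, as the genomic context of these transcripts. The table had entries for 50 of the 67 genes, and none was used for Hapln4 or Col9a3. The sequences were placed on GRCm39 by exact match and are printed 5′ to 3′ on the strand of the gene, ending at the base before the canonical start site of the GENCODE annotation. Capitals mark GGGCGG, the GC box, on either strand.
Tnc, chr4:63965444-63965502, minus strand: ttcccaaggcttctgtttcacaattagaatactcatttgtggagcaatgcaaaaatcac
Ncan, chr8:70573524-70573744, minus strand: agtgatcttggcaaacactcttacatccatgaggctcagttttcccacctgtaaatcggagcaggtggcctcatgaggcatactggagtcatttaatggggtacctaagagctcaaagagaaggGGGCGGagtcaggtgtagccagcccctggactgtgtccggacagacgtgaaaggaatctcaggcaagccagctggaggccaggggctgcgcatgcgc
Col11a1, chr3:113823939-113824133, plus strand: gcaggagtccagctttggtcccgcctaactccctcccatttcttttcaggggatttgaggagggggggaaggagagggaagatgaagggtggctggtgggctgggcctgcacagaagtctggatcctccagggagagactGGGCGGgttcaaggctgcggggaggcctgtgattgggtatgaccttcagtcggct
Lama5, chr2:179867713-179867902, minus strand: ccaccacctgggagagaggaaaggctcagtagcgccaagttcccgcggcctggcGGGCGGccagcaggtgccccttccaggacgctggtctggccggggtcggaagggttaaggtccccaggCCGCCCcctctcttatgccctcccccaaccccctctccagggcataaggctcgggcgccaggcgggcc
The printed stretch of Ncan holds 1 GC box, that of Col11a1 1, that of Lama5 2 and that of Tnc, which is short, none. Over the 250 bases before the RefSeq start, 28 of the 50 members held a GC box in at least 1 of their entries, Tnc among them. Of all 32851 single promoter entries of the table, 32.7% did. The E-box CACGTG, a motif bound by MYC, was in none of the 50 members and in 6.02% of all promoters, and the GLI motif GACCACCCA was in none and in 0.225%. TATAAA was in 8 of the 50, Tnc and Ncan among them, and in 12.4% of all promoters. Both strands were searched and no motif is part of another. A member counted if any of its entries held the motif, whereas the shares of all promoters count single entries. A gene with several entries, such as Tnc with 2, had more chances of a match. The counts of members and these shares are thus in unlike units, and no excess or lack can be read from them. A match or its absence describes these letters only.

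Laminins are cross-shaped trimers of an alpha, a beta and a gamma chain, and the alpha chain sets which receptors and which tissue they serve. Of the 11 laminin chains none passed the test against the P7 cerebella in edgeR, where 4 had an unadjusted p below 0.05, DESeq2 called 1 (Lama3) and limma none. Against SHH MB, 2 alpha chains fell. Lama5 (ENSMUSG00000015647, chromosome 2, 179818166 to 179867712, minus strand, 79 exon blocks), the alpha chain of many mature basement membranes, was measured at 53.3, 47.5, 47.7 and 81.1 CPM in tumors 1 to 4, at 50.9, 41.2 and 46.8 in the P7 cerebella and at 293, 346 and 409 in SHH MB. Tumors and P7 cerebella overlapped, and SHH MB stood far above both. Against SHH MB the tumors differed by -2.60 ± 0.28, or 6.08-fold lower (SE, edgeR, adjusted p = 0.000273), and this call held without any 1 library (at most 0.00312). Against the P7 cerebella the difference was 0.31 ± 0.27 (SE, adjusted p = 0.468). Lama1, the alpha chain of early embryonic and pial basement membranes, was at 32.0, 28.3, 24.9 and 18.8 CPM in the tumors and 58.0, 44.1 and 59.4 in SHH MB, a fall of 1.05 ± 0.25 on the log2 scale (SE, edgeR, adjusted p = 0.0328) that was lost without tumor 2 or any 1 SHH MB (at most 0.193). Lama5 shares 85 exon bases, 0.742% of its own, with Adrm1 on the other strand, at 60 to 162 counts in every library.

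SHH MB differed from P7 cerebella in 1 member, Lama5, which rose by 2.91 ± 0.31 on the log2 scale, or 7.54-fold (SE, edgeR, adjusted p = 0.00629), with all 3 SHH MB above all 3 cerebella. Without any 1 cerebellum, and without SHH MB 2 or 3, the adjusted p was above the threshold (at most 0.109) and no member was called. None of the 44 collagens passed this test, with 7 at an unadjusted p below 0.05; DESeq2 called 2 (Col4a1 and Col11a1) and limma none. When only these 6 libraries, which vary little, were fitted, 31 of the 67 were called and so were 23.7% of all genes. By levels, 15 members were above and 23 below in every SHH MB as compared to every P7 cerebellum, where 17.8% and 19.0% of all genes were. Among the 15 were Col11a1, Col4a1, Col4a2 and Col18a1, and among the 23 Col23a1, Col16a1 and Hapln4.

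**Figure D5:**
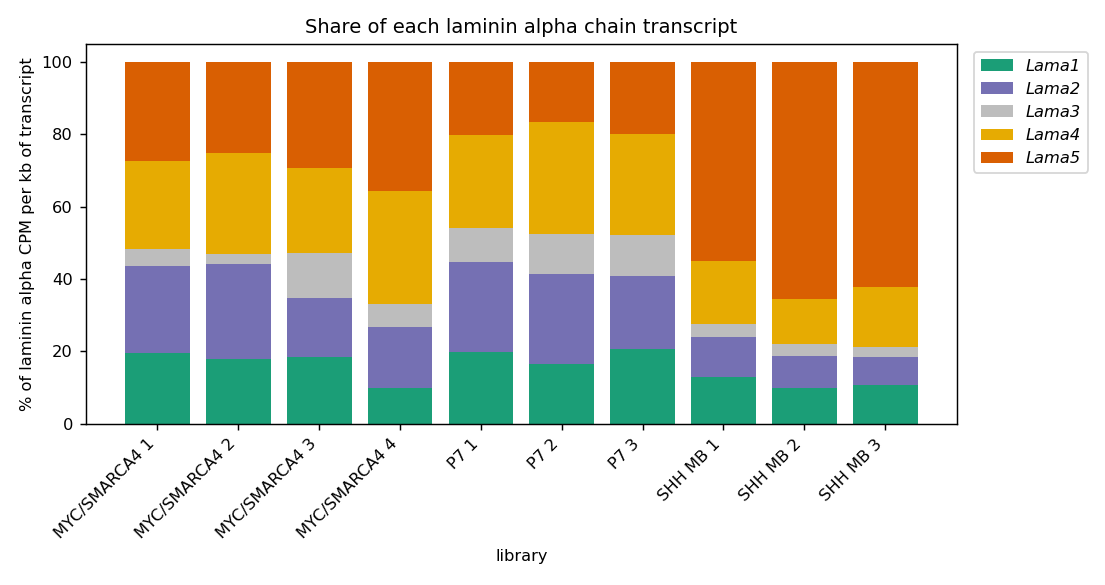
Share of each laminin alpha chain (y axis, percent of the summed CPM per kb of canonical transcript) in each of the 10 libraries (x axis). Lama5 takes 54.9% to 65.5% in the 3 SHH MB, 16.7% to 20.1% in the P7 cerebella and 25% to 35.8% in the tumors.

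Per kb of canonical transcript, Lama5 made up 60.8 ± 5.40% of the alpha chains in SHH MB and 18.8 ± 1.89% in the P7 cerebella (SD, n = 3 each), and 29.4 ± 4.60% in the tumors (SD, n = 4). With the union of exons as length the shares were 70.7%, 26.5% and 40.0%, in the same order. In the P7 cerebella Lama4, an alpha chain of vessel walls, led with 28.2 ± 2.48%, and Lama2, the alpha chain of muscle and of vessel and pial basement membranes, held 23.3 ± 2.86%, whereas with the union of exons Lama5 and Lama1 led there, at 26.5% and 26.2%. Lamc1 codes for the gamma chain of most laminins. Its level was 99.9, 204, 127 and 247 CPM in tumors 1 to 4 and 77.2 to 169 in the others, with no call. Lamb1 and Lamb2, the broadly used beta chains, passed no test by edgeR. Lamb1 was at 75.6, 77.6, 65.8 and 45.5 CPM in tumors 1 to 4 and 50.8 to 64.1 in the others, and Lamb2 at 57.5, 78.6, 40.9 and 89.5 CPM in the tumors. Lamb2 was above every SHH MB (31.4 to 39.8 CPM) in every tumor but did not pass the test (log2 fold change 0.91 ± 0.29, SE, edgeR, adjusted p = 0.0966), and DESeq2 called it. The epithelial chains Lama3 and Lamb3 were at 0.900 to 29.0 CPM over all libraries and did not pass edgeR's test.

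The tumors varied more than the other groups in these genes. The highest tumor exceeded the lowest by a median factor of 2.88 over the 67 members, as compared to 1.27 among the P7 cerebella and 1.33 among the SHH MB, where the tumor group has 1 library more. The largest spread, 16.7-fold, was that of Col28a1, at 0.992, 0.360, 6.02 and 2.81 CPM in tumors 1 to 4. Tumor 3 stood apart in opposite ways at low and high levels. Among the 33 members below the median mean level of 21.4 CPM it was the highest tumor for 19, and among the 34 at or above this level it was the lowest for 20. Tumor 1 was highest for 15 and lowest for 19 of the 67.

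Genes that act on these proteins were described from 5 lists. Of all tested genes, 2.27% were called lower and 3.99% higher in the tumors against the P7 cerebella, and 2.26% and 2.43% against SHH MB. With lists this small, a few calls or none can lie near these shares. Whether the calls in these lists held without single libraries is not given here. Of 27 genes for the synthesis and cross-linking of collagens, 1 (3.70%) fell in the tumors against the P7 cerebella and 2 (7.41%) against SHH MB, and none rose. Loxl1, a lysyl oxidase that cross-links collagen and elastin, fell by 1.28 ± 0.28 and by 3.48 ± 0.29 (log2, SE, edgeR, adjusted p = 0.0234 and 6.29e-05) and was higher by 2.20 ± 0.31 in SHH MB than in P7 cerebella (adjusted p = 0.0180). Adamts14, which removes the N-propeptide of procollagen, differed by -3.51 ± 0.43 between tumors and SHH MB (adjusted p = 0.000687) and by 3.03 ± 0.46 between SHH MB and P7 cerebella (adjusted p = 0.0259). The median log2 fold change of the list was 0.09 and 0.07 in the tumor comparisons.

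Of 14 partners in basement membranes, 1 rose (7.14%) and 2 fell (14.3%) against the P7 cerebella and 3 fell (21.4%) against SHH MB. Nid1, coding for nidogen, which joins laminin to type IV collagen, fell by 1.97 ± 0.32 against the P7 cerebella (log2, SE, edgeR, adjusted p = 0.00635). Npnt, coding for the integrin ligand nephronectin, fell by 1.24 ± 0.25 (adjusted p = 0.0181), and Smoc2, coding for a calcium-binding matricellular protein, rose by 2.98 ± 0.73 (adjusted p = 0.0330). Against SHH MB the largest falls were those of Smoc1, by 3.01 ± 0.41 (adjusted p = 0.00160), and of Fbln2, coding for fibulin 2, by 2.71 ± 0.28 (adjusted p = 0.000234). Fbln2 was higher by 1.71 ± 0.30 in SHH MB than in P7 cerebella (adjusted p = 0.0394).

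Of 15 genes for hyaluronan, phosphacan and related proteoglycans, 2 (13.3%) fell against the P7 cerebella and 1 (6.67%) against SHH MB. Cemip, needed for the breakdown of hyaluronan, fell by 1.93 ± 0.30 (log2, SE, edgeR, adjusted p = 0.00528). Cspg4, the NG2 proteoglycan of oligodendrocyte precursors and pericytes, fell by 1.02 ± 0.27 (adjusted p = 0.0411) and by 1.25 ± 0.27 (adjusted p = 0.0202). Of 19 matrix proteases and inhibitors, 3 fell against the P7 cerebella and 2 against SHH MB, with Mmp14, the membrane-type metalloprotease that activates Mmp2, lower by 2.78-fold and 7.22-fold (adjusted p = 0.0168 and 0.000278). Mmp24 fell by 1.67 ± 0.45 against the P7 cerebella (adjusted p = 0.0470) and Mmp2, a gelatinase, by 1.45 ± 0.33 against SHH MB (adjusted p = 0.0271). Of 26 matrix receptors, 2 (7.69%) fell against the P7 cerebella and 6 (23.1%) against SHH MB, and none rose. Sdc3, coding for the neural syndecan, fell by 2.12 ± 0.38 against the P7 cerebella (adjusted p = 0.0105) and Itga8, an integrin chain that binds nephronectin and tenascin C, by 1.40 ± 0.37 (adjusted p = 0.0420). Against SHH MB, Itga9, an integrin chain that binds tenascin C, fell by 2.30 ± 0.36 (adjusted p = 0.00385), and Ddr2, a receptor for fibrillar collagens, fell by 2.10 ± 0.51 (adjusted p = 0.0358).

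The order of the 67 genes by CPM per kb of canonical transcript differed between the groups. Ncan was first and Tnc second in the P7 cerebella, at 53.6 and 33.8 CPM per kb on average, followed by Bcan, Col1a1 and Col9a3. In SHH MB Ncan led with 59.5 CPM per kb, followed by Col4a1, Bcan, Lama5 and Col9a3, whose ranges overlapped in part, with 31.1 to 41.4, 31.2 to 41.4, 25.6 to 35.7 and 24.3 to 29.6. In the tumors Fn1, Lamc1, Hapln4, Col4a1 and Bcan came first, with ranges of 6.17 to 33.3, 12.6 to 31.1, 3.71 to 47.0, 11.6 to 26.4 and 3.74 to 36.3 CPM per kb that overlap each other, so their order was not resolved. Ncan ranked 15th and Tnc 46th there. With the union of exons as length Ncan and Tnc stayed first and second in the P7 cerebella, and Hapln4 came first in the tumors. Bcan moved with this length from rank 3 to 11 in the P7 cerebella, from 3 to 10 in SHH MB and from 5 to 10 in the tumors.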

How the data were processed

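RNA of 10 FFPE samples was extracted, depleted of ribosomal RNA and sequenced as single-end CORALL total RNA libraries. According to the submitters' processing notes, the authors used FastQC 0.73, Trimmomatic 0.38.1, STAR 2.7.8a on GRCm39 and featureCounts 2.0.1 to make the deposited raw counts per gene, and DESeq2 2.11.40.7 to make the deposited variance-stabilized values, which are on a log2 scale. Annotation version and strand setting of the counting are not given in the sources used here. Total RNA libraries from FFPE tissue can hold degraded RNA and intronic reads, and the share of mitochondrial and rRNA genes was 4.54% to 11.4% of counts in the tumors and 1.98% to 2.69% in the others.

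Counts were fitted with edgeR 4.0.16 in R 4.3.3 (TMM scaling, filterByExpr by group, 1 mean per group over all 10 libraries, quasi-likelihood test), and p-values were adjusted over 29952 of 50559 genes by the Benjamini-Hochberg method, with a threshold of 0.05. The tumor comparisons share the tumors. CPM use library totals scaled by the TMM factors, and levels were divided by transcript length (GENCODE, GRCm39) only to compare genes. These factors were 0.619, 0.802, 1.28 and 0.881 in tumors 1 to 4 and 1.01 to 1.20 in the others. Tumor 1, with the lowest factor, also had the highest share of mitochondrial and rRNA genes, 11.4%. DESeq2 1.42.0 and limma 3.58.1 (on the deposited log2 values) were alternatives, as were other scalings, filters and samples. The script was checked on simulated data. Members and lists were chosen with earlier results of these data known. Up to 3 genes per family and direction past the threshold, by size of fold change, were given with full values, and for families without such a gene the one with the highest mean CPM over all libraries was named; other genes named were chosen after their values were seen. The values of 1 member are not reported here.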

Additional observations from a re-analysis of the deposited data

How the results depend on the processing

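Of the 67 matrix genes, 13 passed the threshold between MYC/SMARCA4 tumors and P7 cerebella, 12 between tumors and SHH MB and 1 between SHH MB and P7 cerebella. Under DESeq2 the numbers were 17, 17 and 3, and under limma 9, 12 and 1. With at least 10 counts in every library they were 19, 19 and 1. Fitting only the 2 groups compared gave 5, 7 and 31, and the thresholds of the study gave 3, 5 and 1. Leaving out 1 library gave 5 to 32, 6 to 31 and 0 to 1, and where 0 members were called no gene of any kind was. No direction of a named gene that passed the test was reversed under any alternative run. The shares of all genes called under these alternatives are mostly not given here, so the counts cannot be read as particular to matrix genes. The cause of these shifts was not tested. The replicate numbers occur in all groups, but same-numbered samples did not deviate together (correlations of deviations between -0.27 and 0.17), and with the numbers as a replicate block 6, 10 and 1 members passed. DESeq2, limma and the fit without a filter moved the median log2 fold change of all genes against the P7 cerebella from -0.05 to -0.26, -0.23 and -0.25, and the median of the members stayed between -0.90 and -0.61 over all alternatives run.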

Other observations

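Several matrix genes that passed no test in the tumor comparisons, with edgeR fitted to all 10 libraries, were higher in tumor 1 than in the other tumors. With single tumors left out, Hapln2 was called against SHH MB without tumor 3 and Col18a1 without tumor 1. They were chosen after their values were seen. Col19a1, coding for a FACIT collagen made by subsets of neurons, was at 93.2 CPM in tumor 1, 14.7 to 27.3 in the other tumors, 22.9 to 33.3 in the P7 cerebella and 13.7 to 16.7 in SHH MB. Col18a1 was at 208 CPM in tumor 1 and 29.7 to 66.4 in the other tumors, and it was also high in SHH MB, at 128 to 147 CPM, as compared to 57.9 to 64.1 in the P7 cerebella. Hapln2 was at 57.3 CPM in tumor 1, 3.54 to 7.42 in the other tumors and 1.70 to 5.42 in the other groups. Tumor 1 also led the 4 tumors in summed mature granule neuron, Purkinje cell, myelin, endothelial, GCP, microglial, pericyte, and bone and cartilage markers. Another tumor led in the summed astrocyte, choroid plexus, meningeal fibroblast, oligodendrocyte precursor and skeletal muscle markers. The part of these cells in the 3 genes was not tested.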
